A study of Mus musculus with 6 samples.

Results

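The cytosolic ribosomal protein genes were examined in hearts of mouse embryos at embryonic day 11.5, in which Dicer had been inactivated or not. They were all genes whose single platform symbol begins with Rpl or Rps and a digit, or is Rpsa, Rplp0, Rplp1 or Rplp2, without the S6 kinases (symbols with Rps6k) and binding proteins (symbols ending in bp1). The rule found 52 probes of 40 genes among 21676 probes of 18005 genes. Each gene is given by its brightest probe over the 6 single-colour arrays. The mutant group held 3 arrays of hearts in which a Cre knocked into the Nkx2.5 locus had inactivated Dicer, and the control group held 3 arrays of hearts whose genotype the sources used here do not give. Nkx2.5 is active in cardiac progenitors, and Cre in this locus acts in their lineage and not in every cell of the dissected heart. Whether each array held 1 embryo or a pool is not stated, so a p-value here reflects the spread among these arrays, part of which may be technical.

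Ribosomal proteins form the large (Rpl) and the small (Rps) subunit of the cytosolic ribosome, together with ribosomal RNA. Their mRNAs are among the most abundant of growing cells and are known to begin with a run of pyrimidines, the terminal oligopyrimidine or TOP motif, through which mTORC1 signalling governs their translation. A few subunits have paralogs with restricted expression: Rpl3l replaces Rpl3 in striated muscle, and Rpl39l is a paralog of Rpl39 known from male germ cells. Dicer cuts miRNA precursors, and the question here is how these mRNAs compare with and without it.

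The tract shared by many of these mRNAs is visible at the annotated starts of the genes. RefSeq promoters of mouse build GRCm38.p6 matched 31 of the 40 genes. A C followed by further pyrimidines, at least 7 bases in all, began between 20 bases before and 30 bases after a start and lay within that window in 20 of the 31 (64.5%), against 25% of 27025 genes in the table. Windows of 30 bases, 10 before and 20 after the start, are shown 5′ to 3′ on the gene's strand for 5 members with tracts of 8 to 18 bases and for 3 paralogs, with the part of the tract that falls in the window in capitals.
Rpl35, chr2:39005112-39005141, minus strand: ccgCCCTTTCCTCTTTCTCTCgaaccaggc
Rpl15, chr14:18270967-18270996, minus strand: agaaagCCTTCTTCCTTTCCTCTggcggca
Rps10, chr17:27635225-27635254, minus strand: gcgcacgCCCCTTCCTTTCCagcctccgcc
Rps18, chr17:33955646-33955675, minus strand: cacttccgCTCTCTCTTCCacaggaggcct
Rpl38, chr11:114668570-114668599, plus strand: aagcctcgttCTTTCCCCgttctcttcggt
Rpl39l, chr16:10170218-10170247, plus strand: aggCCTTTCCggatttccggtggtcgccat
Rpl3l, chr17:24727816-24727845, plus strand: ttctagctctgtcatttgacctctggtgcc
Rpl7l1, chr17:46782637-46782666, minus strand: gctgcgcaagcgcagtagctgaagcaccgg
The tract spanned 18 bases in Rpl35, 17 in Rpl15, 13 in Rps10, 11 in Rps18 and 8 in Rpl38. In Rpl39l the tract spanned 7 bases, all of them before the annotated start. Among members not shown it reached 20 in Rpl34, 19 in Rpl7a and 16 in Rpl11, and none was found near the starts of Rpl3l and Rpl7l1. The motif CCGGAAG, searched on both strands of the 300 promoter bases, was present in 14 of the 31 members (45.2%) and in 9.93% of all genes. TATAAA, on the coding strand of the same bases, was present in 4 of 31 (12.9%) and in 9.77% of all genes. These matches describe letters only, and annotated starts can differ from the starts used in the heart.

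The arrays carried 36227 spots each, of which 74.1% to 78.2% were above background and 184 to 263 saturated. Before normalization, the median subtracted intensity of the members without saturation was 939 on mutant 3 and 1700 to 2420 on the other arrays. Single genes can shift this median. The brightest Rpl29 probe read 512 on mutant 3 and 555 on control 3, against 13100 to 15800 on mutants 1 and 2 and controls 1 and 2. On control 3 the median was 1700. Mutant 3 also had the lowest share of spots above background, 74.1%. What lowered its median was not tested. With 1 scaling constant per array, the median deviation of these members from their means over the 6 arrays was -0.03 on mutant 3. The other arrays lay between -0.04 and 0.13. After background correction, log2 transformation and quantile normalization, 17727 probes above background on at least 3 of 6 arrays were compared between groups with limma. Of these, 9 (0.0508%) passed at a Benjamini-Hochberg adjusted p under 0.05, 5 higher (0.0282%) and 4 lower (0.0226%) in the mutant. That count was 0 without mutant 1, mutant 2, control 1 or control 2, 1 without mutant 3 and 320 without control 3. Dicer1, which checks the labels only if its probe lies in the deleted part (not known here), averaged 6.72 ± 0.03 (SD, n = 3) in mutants, against 7.72 ± 0.10 (SD, n = 3) in controls. The first principal component (54.1% of the variance) did not separate the groups, with control 3 placed between mutants 1 and 2. Of 18 listed cardiomyocyte markers, 17 were measured and 16 were above background on all 6 arrays. In whole hearts, fewer cells of a type and less RNA per cell cannot be told apart.

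The measured differences of ribosomal protein mRNAs between Dicer mutant and control hearts were small. Of the 40 genes, 39 passed the filter on dim probes. Limma called 0 of them higher, against 0.0282% of all probes, and 0 lower, against 0.0226% (0.0508% in either direction, lowest adjusted p of a member 0.553). At an unadjusted p under 0.05 there were 0 as well, against 10% of all probes. The gene left out by the filter was Rpl34, of the large subunit, whose probe was above background on 0 of 6 arrays and read 5.84 to 6.12. Rplp0, Rplp1, Rplp2, Rps6, Rps19, Rps27, Rpl10, Rpl10l, Rpl22l1, Rpl26l1, Rpl36al and Rps4l were not analysed here. The median log2 difference, mutant minus control, was -0.058 over the 39 genes and 0.015 over all probes. Of the 39, 14 had a positive and 25 a negative difference, and 37 lay within 0.25 of 0 (94.9%, against 75.4% of all probes). The large subunit gave a median of -0.029 over 23 genes and the small subunit -0.082 over 16. These values include 14 genes with saturated spots, whose truncated differences all lay within 0.25 of 0. They also include Rpl29, at 0.18 ± 1.63 (SE). Over the 25 genes without saturation the median was -0.102. The median standard error of a single member was 0.11. Cyclic loess in place of quantile normalization moved the median of the 39 genes to -0.118, with 4 positive and 35 negative differences. The split was 7 to 32 with 75th percentile scaling, 10 to 29 with median scaling and 8 to 31 with the authors' normalized intensity.

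**Figure D1:**
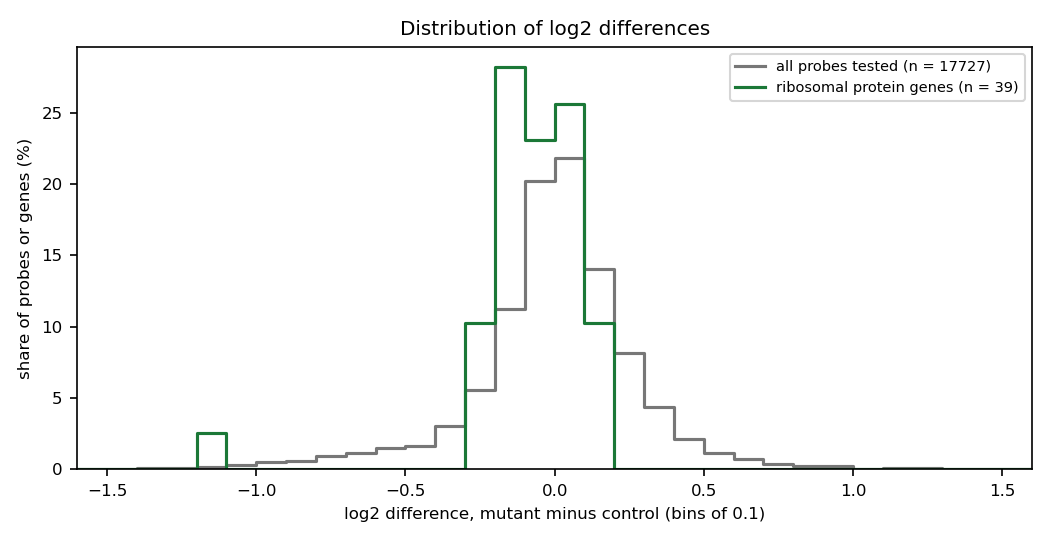
Distribution of log2 differences (mutant minus control, bins of 0.1) for the 39 ribosomal protein genes (green) and all 17727 probes tested (grey), as a share of each. The ribosomal protein genes, 14 of 39 with saturated spots, lie between -0.25 and 0.18 except for Rpl39l at -1.15. The lower value is that of Rpl17, which lies just below -0.25 before rounding. The axis is limited to the range from -1.6 to 1.6.

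Saturation limited what the arrays could show for the brightest members. The brightest probe was saturated on at least 1 array for 14 of the 39 genes (35.9%), against 40 of all 17727 probes (0.226%). For 9 genes it was saturated on all 6 arrays: Rpl5, Rpl11, Rpl35, Rpl36a, Rpl37rt, Rpl39, Rps14, Rps16 and Rps20. No fold is given for these. The probes of Rpl7, Rps26 and Rps29 were saturated on all 3 control arrays and on 2, 1 and 2 mutant arrays. Saturation truncated both groups, so that no fold or bound is given for these either. Rps26, a small subunit protein mutated in Diamond-Blackfan anaemia, was at 14.80, 14.59 and 14.59 in the mutants, against 14.81, 14.79 and 14.70 in the controls. The groups overlapped at mutant 1, which lay above controls 2 and 3 and below control 1. The remaining members with a saturated probe were Rps18, saturated on 2 control arrays, and the X-linked Rps4x, saturated on 1 control array. Rps4x gave 14.50, 14.56 and 14.56 for the mutants, against 14.78, 14.43 and 14.43 for the controls, with no ordering by group.

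Dimmer probes not saturated on any array were tested for 4 of these genes. Rpl5 and Rpl11 encode large subunit proteins that bind Mdm2, the regulator of p53, when ribosome assembly is disturbed. The unsaturated probe of Rpl11 (number 25423) was at 12.60, 12.84 and 12.54 in the mutants, against 12.49, 12.49 and 12.90 in the controls, a log2 difference of 0.04 ± 0.15 (SE). That of Rpl5 (number 32833) gave -0.16 ± 0.18 and that of Rpl7 (number 16660) 0.03 ± 0.10. The groups overlapped for all 3. The dimmer probe of Rps20 differed from this pattern. Rps20 is a protein of the small subunit's head, and this probe (number 35296) was at 7.73, 7.64 and 7.66 in the mutants, against 7.08, 7.32 and 7.37 in the controls. All 3 mutant arrays lay above all 3 controls, as for 9.87% of all probes, with a difference of 0.42 ± 0.11 (SE, limma adjusted p = 0.262). It was the 1 probe among 51 member probes with an unadjusted p under 0.05 and was singled out after its values were seen. The bright probe of the same gene, saturated throughout, read 14.70 to 14.87 on the 6 arrays.

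The 25 genes with no saturated spot give the measured differences. Of these, 7 were positive and 18 negative, with a median of -0.102, and 23 lay within 0.25 of 0. The 95% interval of 20 of the 25 (80%) excluded a change of 1.5-fold in either direction, against 67.7% of all probes. The 5 with wider intervals were Rpl17, Rpl29, Rpl39l, Rpl7l1 and Rps27l. For members close to background the intervals do not bound the true change, as the offset of the correction pulls differences towards 0. Rpl3l, for example, gave -0.11 here, -0.42 with the authors' subtracted intensity and -0.44 with their normalized intensity. Small subunit members without saturation had a median of -0.108 over 9 genes and large subunit members -0.078 over 16.

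**Figure D2:**
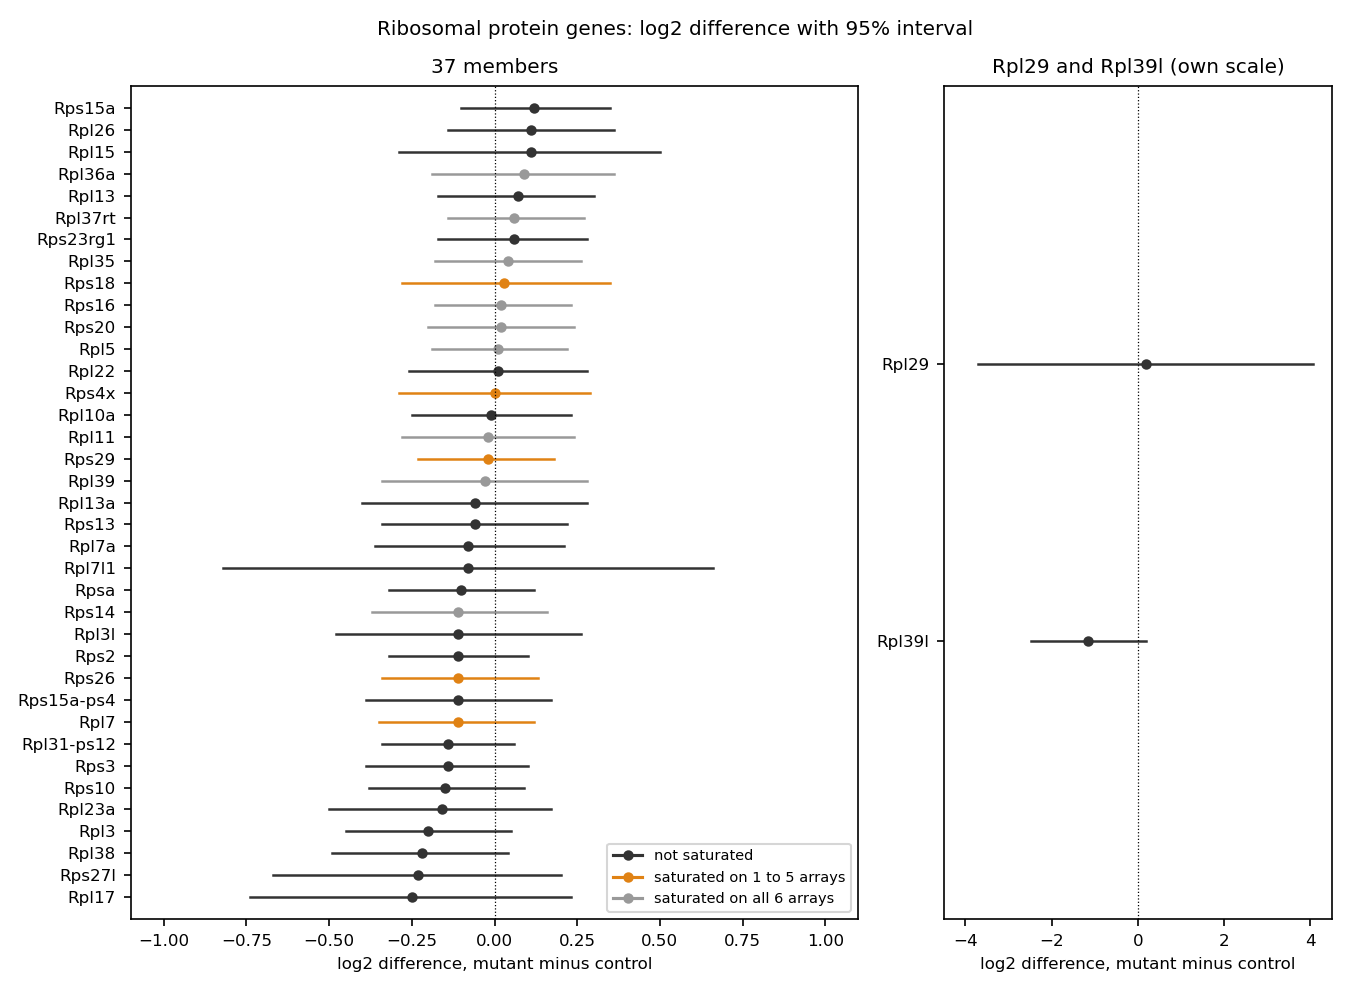
Log2 difference (mutant minus control, point) with its 95% interval from limma (line) for the 39 ribosomal protein genes tested, Rpl29 and Rpl39l on a wider scale. Black marks genes without saturated spots, orange those saturated on some arrays and grey those saturated on all 6, for which the interval is no measure of the true difference. All intervals include 0.

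In 4 genes every mutant array read lower than every control array, and in 0 every mutant array read higher, against 5.27% and 9.87% of all probes. Rpl38, a large subunit protein whose loss in mice disturbs the axial skeleton, was at 13.92, 13.81 and 13.80 in the mutants, against 14.00, 13.95 and 14.25 in the controls. The gap between the nearest arrays of the groups was smaller than the spread among the controls, and the difference was -0.22 ± 0.11 (SE), or 0.856-fold (95% interval 0.712 to 1.03, limma adjusted p = 0.556). Rps10, a small subunit protein, was at 14.03, 14.25 and 14.25 against 14.35, 14.35 and 14.28, a difference of -0.15 ± 0.10 (adjusted p = 0.641). Rpsa, the small subunit protein also known as the laminin receptor, gave -0.10 ± 0.09, its highest mutant and lowest control both rounding to 12.42. Its dimmer probe overlapped, at -0.12 ± 0.15. The pseudogene symbol Rpl31-ps12 gave -0.14 ± 0.08 at a low signal of 6.70 to 6.93.

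Core members were close to the control level. Rpl3, which reaches into the peptidyl transferase centre, was at 13.20, 13.17 and 13.35 in the mutants, against 13.45, 13.32 and 13.55 in the controls. The groups overlapped by mutant 3 and control 2, and the difference was -0.20 ± 0.10 (SE), or 0.87-fold (95% interval 0.731 to 1.03). Rps3, at the mRNA entry channel, gave -0.14 ± 0.10, with 13.98, 14.16 and 14.16 against 14.36, 14.23 and 14.14. Rpl13a gave -0.06 ± 0.14, with control 1 highest at 12.73 and the other arrays between 12.28 and 12.46. Rpl10a gave -0.01 ± 0.10, Rpl22 0.01 ± 0.11, Rpl13 0.07 ± 0.10 and Rpl26 0.11 ± 0.11. Rpl22 is a large subunit protein that also binds other RNAs, and its arrays ran from 10.78 to 11.06 without order by group. The largest positive difference of a brightest probe outside Rpl29 was 0.12 ± 0.09, of Rps15a in the small subunit, with mutants at 8.20, 8.29 and 8.40 and controls at 8.20, 8.11 and 8.21. Of the remaining members, Rpl15 gave 0.11 ± 0.17, Rpl7a -0.08 ± 0.12, Rps13 -0.06 ± 0.12 and Rps15a-ps4 -0.11 ± 0.12, all with overlapping groups.

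Some member probes read close to background, where the offset of the correction pulls differences towards 0. Rps2, of the small subunit, had a median background-subtracted intensity of 41.2 and a log2 difference of -0.11 ± 0.09 (SE). Rpl23a, of the large subunit, had an intensity of 79.8 and gave -0.16 ± 0.14. Rps23rg1, a retrogene of Rps23, had 64 and gave 0.06 ± 0.09. Ribosomal protein genes have many processed pseudogenes of near-identical sequence, and which copies a probe binds is not known here.

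Where a member had several tested probes, the spread of their differences is given, but a small spread alone does not show agreement. Over all probes tested, the lower and upper quartiles of the difference were -0.11 and 0.14. The brightest probes of Rpl5, Rpl7, Rpl11 and Rps20 were saturated, so their differences are no measure. The dimmer probes of Rpl17, Rpl29 and Rps13 had median subtracted intensities of 61.3 to 117. Of 9 such genes, the probes of Rpsa differed by 0.02, those of Rpl11 by 0.06, those of Rpl7 and Rpl7l1 by 0.15, Rps13 by 0.16 and Rpl5 by 0.18. The widest spreads were 0.29 for Rpl17 and 0.40 for Rpl29 and Rps20. For Rpl17, the 3 probes gave -0.25 ± 0.20, -0.25 ± 0.12 and 0.03 ± 0.10 (SE). Probes of 1 gene share the arrays and are not replicates.

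After Rpl29, the paralogs Rpl39l and Rpl7l1 had the widest spread within groups, with SDs of 0.87 and 0.47. Rpl39l was at 8.77, 8.57 and 10.13 in the mutants, against 10.98, 10.64 and 9.30 in the controls. Mutants 1 and 2 were lowest and controls 1 and 2 highest, but mutant 3 lay above control 3, so the groups overlapped. The difference was -1.15 ± 0.56 (SE), or 0.451-fold (95% interval 0.18 to 1.13, limma adjusted p = 0.553). Its SD within groups lay at percentile 99.1 of the probes tested. Rpl39, its ubiquitous counterpart at the peptide exit tunnel, was saturated on all arrays and read 14.61 to 14.99.

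Without mutant 3 and control 3, whose titles share a number, Rpl39l gave -2.14 with a limma adjusted p of 0.000479, a fit that called 22.1% of all probes. With the slide, inferred from the start of the titles, as a block it gave -2.31 and an adjusted p of 0.0173, where 7.55% of all probes were called. Of the 4 slides so inferred, 1 held both groups (2 mutants and 1 control), so that this value rests on those 3 arrays and the fit had 1 residual degree of freedom. In the other 21 alternatives Rpl39l ranged from -1.65 to -0.62 and did not pass, with adjusted p up to 1. Its level followed the first principal component of the arrays in all but the order of mutant 1 and control 3: that component placed controls 1 and 2 at 37.3 and 26.3, mutant 3 at 5.63, mutant 1 at -18.3, control 3 at -20.8 and mutant 2 at -30.1. The erythroid markers, as a median deviation per array, were highest in controls 1 and 2 (0.418 and 0.229), then 0.031 in mutant 1, -0.181 in mutant 2, -0.188 in mutant 3 and -0.223 in control 3. Epicardial markers were also highest in controls 1 and 2 (0.143 and 0.19), with the other arrays between -0.131 and -0.1. Of the epicardial genes named below, Bnc1 ordered the arrays as Rpl39l did, and Rspo1, highest in control 3, did not. The part of erythroid and epicardial cells in the level of Rpl39l was not tested.

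Rpl3l, the striated muscle paralog, was near background, above it on 3 of 6 arrays, with a median subtracted intensity of 24.1. Its arrays ran from 6.01 to 6.52, and the difference was -0.11 ± 0.15 (SE). Rpl7l1, a paralog of Rpl7, was at 10.90, 11.18 and 10.01 in the mutants, against 10.50, 10.80 and 11.03 in the controls. Mutant 3 was lowest and mutant 2 highest, and the difference of -0.08 ± 0.31 was smaller than that spread. The other probes of Rpl7l1 gave -0.10 ± 0.11 and -0.23 ± 0.13. Rps27l, a paralog of Rps27 and a transcriptional target of p53, was at 12.42, 12.35 and 11.98 against 12.21, 12.47 and 12.77. Mutant 3 was lowest and control 3 highest, and the difference was -0.23 ± 0.18 (adjusted p = 0.678).

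Rpl29, a basic protein of the large subunit, split the arrays in a way that crossed the groups. Its brightest probe (number 16116) was at 13.84, 13.86 and 9.31 in the mutants, against 13.64, 13.56 and 9.27 in the controls. Mutant 3 and control 3 were low and the other 4 arrays high. In background-subtracted intensity these 2 arrays read 512 and 555, and the others 13100 to 15800. The log2 means of 13.72 and 9.29 differ 21.6-fold, on spots flagged good on all 6 arrays. These 2 arrays share a number in their titles, as does each other mutant with the control numbered alike here, and the labels do not say what that number stands for. Over all 17727 probes, this was the 1 probe for which the 2 arrays were separated from the other 4 by over 1 on the log2 scale, with a gap of 4.24, and the next widest gap was 0.97. The pattern was noticed in the data, so that no test is given.

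The group difference of Rpl29 was 0.18 ± 1.63 (SE), with a 95% interval of 0.0767-fold to 16.8-fold, so that it had almost no precision. Without control 3 it was -1.26, and without mutant 3 it was 1.69. Without both arrays it was 0.25, from means of 13.85 in the mutants, against 13.60 in the controls (limma adjusted p = 0.111, over all alternatives 0.111 to 1). The dimmer probe (number 29241) showed no such split, but with a median subtracted intensity of 61.3 it read close to background. It was at 6.74, 6.76 and 6.98 in the mutants, against 7.27, 7.23 and 6.63 in the controls, with a difference of -0.22 ± 0.19. Mutant 3 was the highest mutant on that probe and control 3 the lowest of all.

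**Figure D3:**
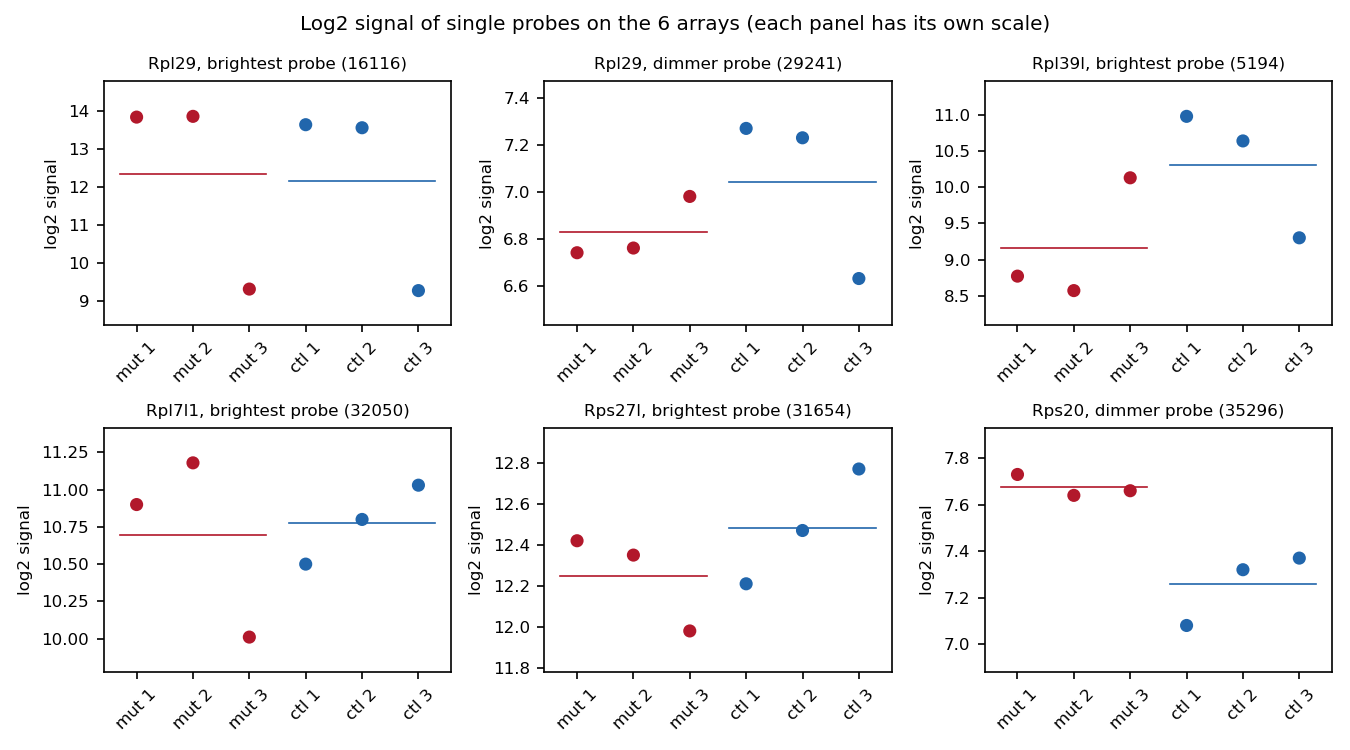
Log2 signal of 6 member probes on each array, mutants (mut) in red and controls (ctl) in blue, with group means as lines and a scale of its own in each panel. The bright Rpl29 probe was near 9.3 on mutant 3 and control 3 and between 13.56 and 13.86 elsewhere, and the dim Rps20 probe was higher on all 3 mutants.

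The level of the set was also followed from array to array. The median deviation of the 39 genes from their probes' means over the 6 arrays was -0.021, -0.013 and 0.012 in the mutants, against 0.047, 0.014 and 0.008 in the controls. Mutant 3 lay above control 3, so the groups overlapped, and control 1 was highest. Over the 25 genes without saturation it was -0.034, -0.014 and 0.012 for mutants 1 to 3, and 0.070, 0.010 and 0.026 for controls 1 to 3, again with overlapping groups. With 1 scaling constant per array in place of quantile normalization, which forces bright probes onto 1 distribution, control 1 stood at 0.13 and the other arrays between -0.05 and 0.03. The 9 genes saturated throughout lay between -0.094 and 0.037. The within-group SD had a median of 0.12 over the 25 genes without saturation, against 0.16 over all probes.

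Genes of the same pathway were counted from lists. Mitochondrial ribosomal proteins, which form the separate ribosome of mitochondria, had 53 of 70 members with a positive difference and a median of 0.078, where 53.3% of all probes were positive. None passed limma's test over all probes, against 0.0508% of all probes. An unadjusted p under 0.05 was found for 9 higher and 1 lower, against 6.75% and 3.26% of all probes. Mrps31 and Mrpl37 had the smallest p, both at 0.40, with standard errors of 0.10 and 0.11. The array medians of this list were 0.078, 0.156 and -0.030 in the mutants, against -0.136, -0.107 and 0.073 in the controls, with mutant 3 below control 3. Their median was 0.252 without mutant 3 and control 3, 0.019 and 0.008 without both arrays numbered 1 and numbered 2, 0.017 with cyclic loess and 0.026 without mutant 2.

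Ribosome assembly and nucleolar factors had 42 of 75 members above 0 (56%, against 53.3% of all probes) and a median of 0.071. That median was 0.001 with cyclic loess, 0.020 without mutant 2, and -0.003 and -0.014 without both arrays numbered 1 and numbered 2. Rrp1b and Sdad1, both nucleolar, gave 0.36 ± 0.10 and 0.42 ± 0.12 (SE). RNA polymerase I genes, which transcribe ribosomal RNA, had 7 of 15 above 0 and a median of -0.05. Their smallest p belonged to Taf1a, a subunit of the promoter selectivity factor, at 0.30 ± 0.09, and Cd3eap, a polymerase I subunit, at -0.29 ± 0.09. None of these genes passed, against 0.0508% of all probes.

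Other TOP mRNAs had a median of -0.053 over 14 measured genes, 5 above 0 and 9 below. Vim, which encodes the intermediate filament vimentin, gave -0.42 ± 0.13 and Eef1g, an elongation factor subunit, -0.22 ± 0.12 (SE). Initiation factors had 19 of 35 above 0 and a median of 0.037. Eif3a, the largest subunit of the initiation factor that binds the small subunit, gave 0.48 ± 0.09 (limma adjusted p = 0.157), and Eif5a2 0.62 ± 0.12 (adjusted p = 0.161). Elongation and release factors had 9 of 12 above 0 and a median of 0.04. By the smallest p this list was led by Pelo, a ribosome rescue factor, at 0.29 ± 0.15, and Eef1g, which is in both lists, at -0.22 ± 0.12. Limma called 0 members of these lists, against 0.0508% of all probes, so that this count says nothing particular about them.

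Genes upstream of ribosome production were listed next. Myc and mTORC1 genes had 18 of 38 above 0 and a median of -0.004, with Rhebl1 at 0.65 ± 0.12 (limma adjusted p = 0.151) and the kinase gene Mtor at 0.35 ± 0.11 (SE). Genes of the p53 response had 15 of 21 above 0 and a median of 0.077, with Cdkn1a, the cell cycle inhibitor p21, at 1.49 ± 0.27 and Mdm4, an inhibitor of p53, at 0.76 ± 0.16 (adjusted p of 0.151 and 0.198). Proteasome subunits, another set of abundant housekeeping genes, had 23 of 35 above 0 and a median of 0.06, with Psmc2 at 0.30 ± 0.09 and Psmd12 at 0.32 ± 0.13. Limma called 0 members of these lists, which at 0.0508% of all probes called says nothing particular about them.

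**Figure D4:**
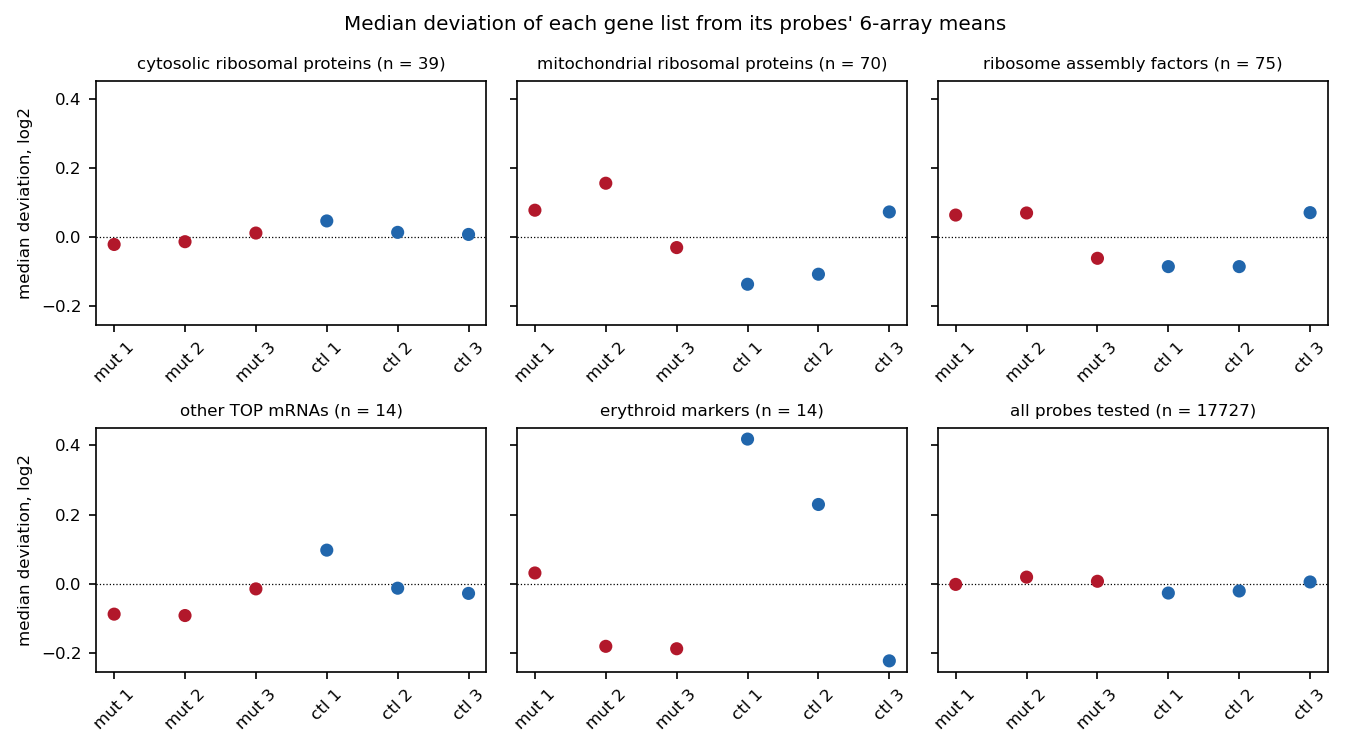
Median deviation (log2) of 6 sets of probes from their means over the 6 arrays, mutants in red and controls in blue, on a common scale. The cytosolic ribosomal proteins, 14 of 39 with saturated spots, ran from -0.021 to 0.047, and the erythroid markers from -0.223 in control 3 to 0.418 in control 1.

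Markers of the cell types of the dissected heart are given beside the members. Erythroid markers had 12 of 14 members below 0 and a median of -0.294, and 13 of the 14 were above background on all arrays. Endocardial and endothelial markers had a median of -0.121 (13 of 16 below 0), cushion mesenchyme -0.312 (9 of 14) and epicardium -0.191 (8 of 10). Cardiomyocyte markers had a median of 0.101 (8 of 17 below 0), leukocytes and platelets 0 (4 of 9) and liver 0.047 (3 of 6). By the smallest p, the erythroid list was led by Gata1 at -0.68 and Rhag at -0.30, and the endothelial list by Cd34 at -0.35 and Esam at -0.28. Fbln1 (0.71) and Vcan (0.61) led the cushion list, and Rspo1 (-0.86) and Bnc1 (-1.21) the epicardial list. Myl3 (-0.78, limma adjusted p = 0.0836) and Tnni3 (0.41) led the cardiomyocyte list, Cd14 (0.38) and Ppbp (0.62) the leukocyte list, and Apoa2 (0.21) and Trf (-0.33) the liver list. Limma called 0 of the markers, which at 0.0508% of all probes called says nothing particular about them. The part of these cell types in the ribosomal protein differences was not tested.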

How the data were processed

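Each of the 6 deposited scanner tables gives, per spot, a mean intensity, the median of the surrounding background, a subtracted intensity, the authors' normalized intensity and a letter flag. The sources used here do not say how the authors normalized or which software they used. Letters were read as L near background, S saturated and M masked, and masked spots were treated as missing. Groups came from the labels' descriptions. Spot means were corrected with normexp (offset 50), log2-transformed and quantile-normalized over the 21880 spots that the platform annotation lists with a gene, in limma 3.58.1 under R 4.3.3. Differences were tested with lmFit and eBayes, two-sided, with Benjamini-Hochberg adjustment over all 17727 probes above background on at least 3 arrays. Probes with several genes (204) were named for none. The number of arrays limits the precision. No control spots were marked, although the design had foreseen leaving them out by their mark. The fit was tested on simulated data.

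The members, gene lists, naming rule and alternatives were chosen with earlier results of these data known. Members named are those whose groups did not overlap, those saturated, and a list of subunits and paralogs whatever their values; of each other list, the 2 with the smallest p. Further members were named after their values were seen. Promoter sequences are from RefSeq. A list of ribosomal proteins under other symbols (4 symbols) had 0 measured members. Alternatives were the authors' subtracted and normalized intensity, the series' value table, other scalings, offset, filters, the title number or slide as a block, the mean of a gene's probes, and leaving out arrays.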

Additional observations from a re-analysis of the deposited data

How the results depend on the processing

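Of 866 values of the 39 members over 23 alternatives, 864 stayed without a call, and 91 changed sign without one; 2 gained a call, both of Rpl39l. Some alternatives, such as the filters and the title number as a block, cannot change a member's difference, only its p-value. The count of members called moved from 0 to 1 with the slide as a block and without both arrays numbered 3, each time lower. It was 0 without any single array. The cause was not tested.

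The number of probes called, 9, moved to 5 with the authors' subtracted intensity, 4 with their normalized intensity, 0 with the title number as a replicate block, 1338 with the slide as a block, and 0, 0 and 3921 without both arrays numbered 1, 2 and 3, which share a title number; without single arrays it was 0 to 320. The median of the members, -0.058, moved to -0.031 with median scaling, with or without the members, -0.118 with cyclic loess, -0.102 without saturated probes, -0.087 with the slide as a block and -0.028 without both arrays numbered 1; without single arrays it was -0.070 to -0.028. The large subunit, -0.029, moved to -0.063 with 75th percentile scaling, -0.114 with cyclic loess, -0.070 in the series' value table, -0.078 without saturated probes, -0.094 with the slide, and 0.016 and -0.055 without both arrays numbered 1 and numbered 2; without single arrays it was -0.069 to 0.005. The small subunit, -0.082, moved to -0.038 with median scaling, with or without the members, -0.118 with cyclic loess, -0.121 in the value table and -0.043 without both arrays numbered 1; without single arrays it was -0.082 to -0.031. Mitochondrial ribosomal proteins, 0.078, moved to 0.248 with the slide and 0.252 without both arrays numbered 3, and fell to 0.008 and 0.019 without both arrays numbered 2 and numbered 1, 0.017 with cyclic loess and 0.026 without mutant 2. Assembly factors, 0.071, moved to 0.158 with the slide, -0.014 and -0.003 without both arrays numbered 2 and numbered 1, and 0.001 with cyclic loess; without single arrays they were at 0.020 to 0.124. The causes were not tested, except that leaving out saturated probes leaves 25 members.

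The title numbers did not meet the condition for pairing, a correlation over 0.1 in every pair. The correlations of same-numbered deviations from the group means were 0.01, -0.48 and -0.38, and those of unlike number ran from -0.5 to 0.56. With 3 arrays per group, deviations from a group mean sum to 0, so these correlations cannot exclude pairing. Both arrays numbered 3 shared the low signal of the bright Rpl29 probe. As a replicate block the number left the members' median at -0.058 with 0 members called. Scalings moved the median of all probes between -0.012 and 0.03. Saturation limits the brightest members, and closeness to background for Rpl3l, Rps2, Rps23rg1 and Rpl31-ps12.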
